A study of Mus musculus with 9 samples.

Results

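Germ cells control much of their messenger RNA after transcription, through proteins that bind 3′ untranslated regions (3′UTRs) and recruit enzymes that shorten or lengthen the poly(A) tail. The genes described here encode 7 such proteins of the mouse germline: Nanos1, Nanos2, Nanos3, Dnd1, Pum2, Dazl and Cpeb1. They were chosen by name, with earlier results of these data known, and are 7 of the 23813 entries of the expression table. All 7 passed the filter on low values, a level of at least 1 FPKM (sequenced fragments scaled to transcript length and to the size of the library) in at least 3 of 9 libraries.

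The libraries came from ID4-EGFP+ spermatogonia of postnatal day 6 pups, and 3 replicate preparations were sequenced of each of 3 populations. TSPAN8-high cells were the 1/3 of ID4-EGFP+ cells that bound the most antibody against the cell surface tetraspanin TSPAN8. TSPAN8-low cells were the 1/3 that bound the least, and all ID4-EGFP+ cells were not divided by TSPAN8. All 3 groups shared the LT-11B6 line, a C57BL/6 strain that carries the Id4-eGfp transgene, so every cell had been selected by a reporter of the Id4 gene. The labels do not say whether a preparation pooled pups, nor how preparations were shared between groups, and the p-values below therefore cover only the spread between these samples, which may be technical.

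In vertebrates and flies, NANOS proteins lower the translation or stability of bound messages. Mouse NANOS2 binds the CCR4-NOT deadenylase, which removes poly(A) tails, and keeps spermatogonial stem cells from being lost. NANOS3 protects primordial germ cells from death, DND1 is a partner of NANOS2 in RNA binding, and NANOS1 is not required for mouse fertility. PUM2 recognises the sequence UGUANAUA and can bring NANOS proteins to a message. DAZL mainly promotes the translation of its targets and is needed for germ cells to become competent for meiosis, and CPEB1 binds the cytoplasmic polyadenylation element UUUUAU.

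The sort was visible in the RNA. Tspan8 averaged 34.0 ± 8.41 FPKM in TSPAN8-high cells, 9.73 ± 2.71 FPKM in TSPAN8-low cells and 15.2 ± 1.39 FPKM in all ID4-EGFP+ cells (SD, n = 3 each). Id4 averaged 67.2 ± 7.17, 26.2 ± 8.14 and 35.6 ± 4.34 FPKM in the same order of groups. Between 10734 and 11155 entries per library reached 1 FPKM. Read totals are not given, and the spacing of low values put the depth of the 9 libraries at 0.856 to 1.05 times that of all ID4-EGFP+ replicate 1, with TSPAN8-low replicate 1 the shallowest. Pearson correlations of log2(FPKM + 1) across genes were at least 0.981 within groups and 0.966 to 0.991 between groups. The 5 germ cell markers summed to 1132 to 1292 FPKM in TSPAN8-high, 1219 to 1265 FPKM in TSPAN8-low and 1299 to 1385 FPKM in all ID4-EGFP+ libraries. These sums join markers of opposite sign between TSPAN8-high and TSPAN8-low cells. Gfra1, a GDNF receptor, differed by 1.35 on the log2 scale (limma adjusted p = 0.00551) and Zbtb16 by 0.59 (0.0567). Ddx4 differed by 0.55 (limma adjusted p = 0.124), Sall4 by 0.26 (0.429) and Uchl1 by −0.46 (0.104). Most of the sums came from Ddx4, at means of 591 against 404 FPKM, and Uchl1, at 586 against 806 FPKM. With replicate number as a block, 3 of the 5 were called higher and 1, Uchl1, lower.

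The 7 genes spanned a wide range of FPKM. FPKM is scaled to transcript length. How GC content and reads shared with overlapping genes bear on the order of genes was not tested, so the order is one of FPKM only. Dazl had the highest FPKM, at 1148 to 1849 over the 9 libraries, which placed it at percentiles of 98.8 or above among entries of at least 1 FPKM in every library. Nanos3 followed at 108 to 203 FPKM and Dnd1 at 29.4 to 55.3 FPKM. The ranges of these 3 genes did not overlap one another. Pum2, with a mean of 12.5 FPKM over 9 libraries, Cpeb1 with 9.25, Nanos1 with 9.05 and Nanos2 with 7.67 FPKM had overlapping ranges, so their order is not resolved. The coefficient of variation over the 9 libraries was largest for Nanos2 (40.4%) and Nanos1 (34.3%), against 13.9% for Dazl, 14.8% for Cpeb1, 17.3% for Nanos3, 18.4% for Dnd1 and 25.4% for Pum2.

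**Figure D1:**
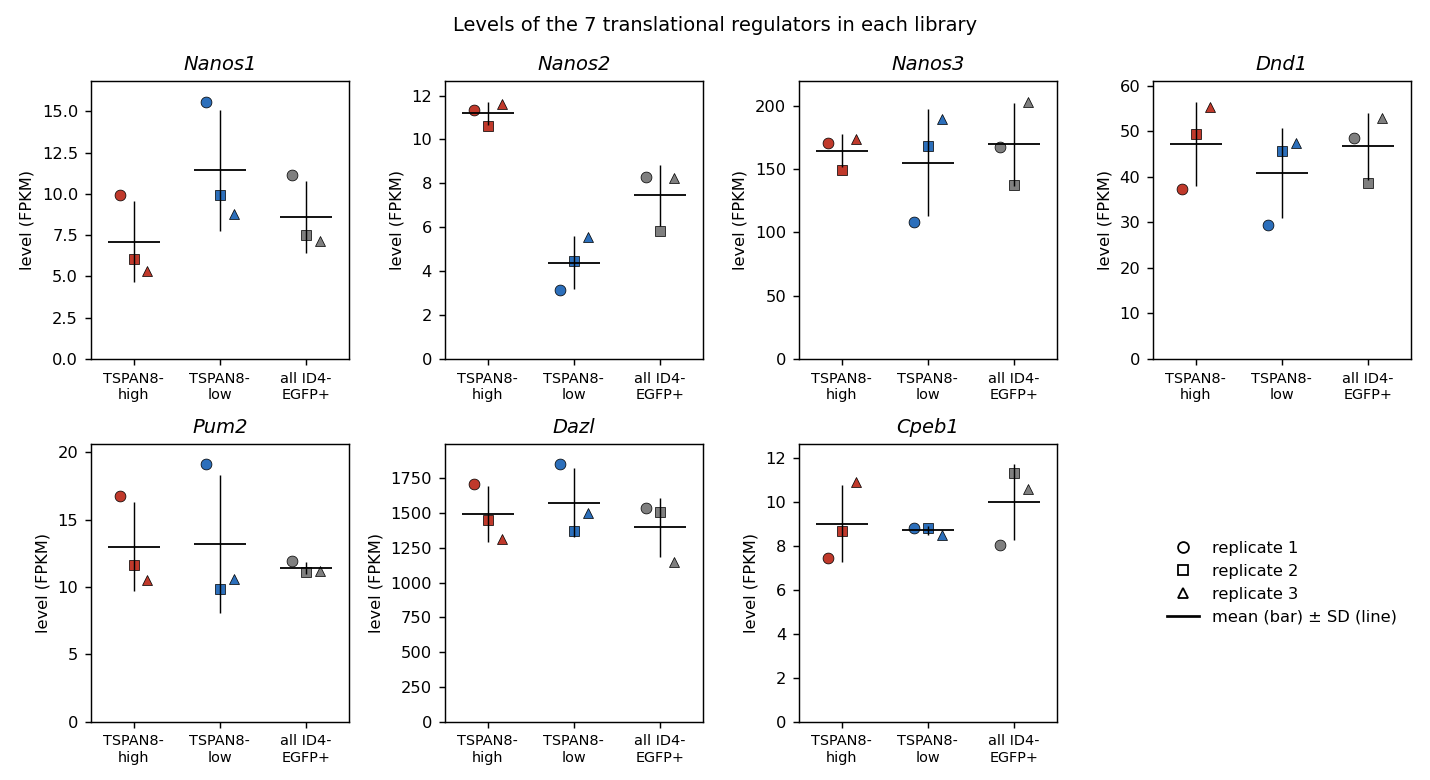
Level in FPKM (y axis, each panel from 0) of each regulator in the TSPAN8-high, TSPAN8-low and all ID4-EGFP+ libraries; each symbol is a library, the bar is the group mean and the vertical line is the SD of 3 libraries. Nanos2 is the gene whose 3 groups do not overlap, and the Nanos1 groups overlap.

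Nanos2 followed the sort: TSPAN8-high cells had the most, TSPAN8-low cells the least, and the unfractionated cells lay between. Its level was 11.3, 10.6 and 11.6 FPKM in replicates 1, 2 and 3 of TSPAN8-high cells, 3.15, 4.45 and 5.56 FPKM in TSPAN8-low cells, and 8.27, 5.85 and 8.24 FPKM in all ID4-EGFP+ cells. Every TSPAN8-high library was above every all ID4-EGFP+ library, and every one of those was above every TSPAN8-low library. The share of all tested genes with this full order was not counted. All ID4-EGFP+ cells were not divided by TSPAN8 and include cells of both fractions, so their middle place is not a separate result. The means were 11.2 ± 0.534, 4.39 ± 1.21 and 7.45 ± 1.39 FPKM (SD, n = 3 each), and the first is 2.55 times the second. In these bulk samples a larger share of cells that contain a message and more RNA per cell cannot be told apart.

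In the limma model over all 11130 tested genes, with Benjamini-Hochberg adjustment, the Nanos2 difference between TSPAN8-high and TSPAN8-low cells was 1.20 on the log2(FPKM + 1) scale (SE 0.19, 95% interval 0.79 to 1.61, adjusted p = 0.00604). This scale understates the change of low genes. Nanos2 was the only one of 7 regulators that passed the adjusted p threshold of 0.05 in this comparison, 1 of 7, where 5.55% of all tested genes passed and 3.41% were higher. It was also the only one whose groups did not overlap, which 25.6% of tested genes shared. An exact two-sided permutation test gave 0.1, the smallest p that 3 against 3 libraries allow. Leaving out replicate 2 of all groups took the adjusted p to 0.0916 by limma, with a log2 difference of 1.26; 10 of all tested genes passed in that fit. The value held in each of the 9 fits that left out a single library, with log2 differences of 1.03 to 1.36 and limma adjusted p of at most 0.0283.

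Transcripts of other testis cells were present at different levels in the same libraries. The 12 Sertoli cell markers summed to 89.2, 98.6 and 224 FPKM in TSPAN8-high replicates 1, 2 and 3, against 11.8, 21.3 and 138 FPKM in TSPAN8-low and 17.0, 44.2 and 104 FPKM in all ID4-EGFP+ replicates. Among the Sertoli markers, 6 of 12 averaged at least 1 FPKM, none was at 0 in all 9 libraries, and Sox9 stayed at 0.0332 to 0.197 FPKM in TSPAN8-high libraries. Of the 6 that were tested, limma called 0 between TSPAN8-high and TSPAN8-low cells, with 5 at an unadjusted p under 0.05, and 5 were called higher when the replicate number was a block. The 5 leukocyte markers summed to 12.5 to 22.9, 5.13 to 12.7 and 7.49 to 11.7 FPKM in the 3 groups. Most of these sums came from Cd68, with means of 13.0, 8.76 and 9.27 FPKM. Ptprc stayed at or under 0.177 FPKM. Csf1r and C1qa were at 0 in every TSPAN8-low and all ID4-EGFP+ library. Lyz2 reached 7.95 FPKM in TSPAN8-high libraries and at most 0.121 FPKM in the other groups. The 5 peritubular myoid markers summed to 3.57 to 7.63, 1.55 to 3.73 and 2.35 to 4.95 FPKM. The 6 Leydig markers stayed at or under 6.48 FPKM and the 5 endothelial markers at or under 1.70 FPKM. The part of these markers in the Nanos2 result, and in the other differences below, was not tested. The Nanos2 exon also overlaps the antisense gene Gm45058 by up to 766 bases in the GENCODE M21 annotation, and with a kit that keeps no strand information the reads of the pair cannot be told apart.

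**Figure D2:**
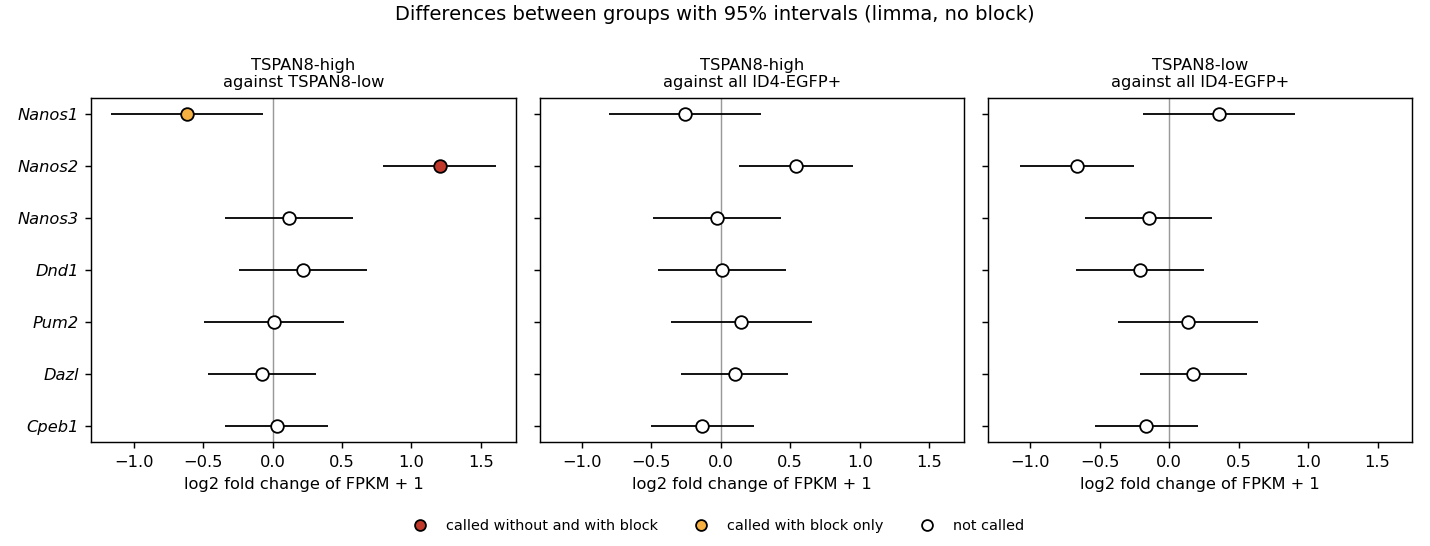
Difference in log2(FPKM + 1) (x axis) of each regulator in 3 comparisons, with 95% intervals from limma without a block. Red points mark genes at an adjusted p under 0.05 without and with the replicate block, orange points those with the block only, and open points those not called. Nanos2 at 1.20 and Nanos1 at −0.62 stand furthest from 0 between TSPAN8-high and TSPAN8-low cells, and Nanos1 passed only when replicate number was a block.

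Nanos1 had the opposite sign. It measured 9.93, 6.06 and 5.36 FPKM in TSPAN8-high replicates 1, 2 and 3, against 15.6, 9.93 and 8.76 FPKM in TSPAN8-low and 11.1, 7.52 and 7.16 FPKM in all ID4-EGFP+ cells. In each numbered pair the TSPAN8-high library was lower than the TSPAN8-low library, yet the groups overlapped, because replicate 1 was the highest of each group. The means were 7.12 ± 2.46, 11.4 ± 3.65 and 8.60 ± 2.19 FPKM (SD, n = 3 each). The log2 difference was −0.62 (SE 0.25, 95% interval −1.17 to −0.07), which did not pass in limma without a block (adjusted p = 0.176, exact permutation p = 0.2). Leaving out TSPAN8-low replicate 1 took it to −0.39 without a block. With replicate number as a block it passed in limma (SE 0.12, adjusted p = 0.00426), and Nanos2 did too (SE 0.16, adjusted p = 0.000726), so 2 of 7 regulators were called with the block, 1 higher and 1 lower, beside 11.8% of all tested genes higher and 7.35% lower.

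Nanos3, the third NANOS gene, and Dnd1, which encodes the NANOS2 partner, gave no call. Nanos3 measured 170, 150 and 173 FPKM in TSPAN8-high, 108, 168 and 190 FPKM in TSPAN8-low and 168, 138 and 203 FPKM in all ID4-EGFP+ replicates. The TSPAN8-high libraries fell inside the span of the TSPAN8-low libraries, and the log2 difference between these groups was 0.12 (95% interval −0.34 to 0.58, limma adjusted p = 0.779). Dnd1 measured 37.2, 49.3 and 55.3 FPKM in TSPAN8-high, 29.4, 45.7 and 47.4 FPKM in TSPAN8-low and 48.6, 38.6 and 52.9 FPKM in all ID4-EGFP+ replicates. It was higher in TSPAN8-high in 3 of 3 numbered pairs, but the groups overlapped and the log2 difference of 0.22 did not pass (95% interval −0.24 to 0.68, limma adjusted p = 0.582). Dnd1 exons overlap those of Wdr55 on the other strand by up to 138 bases, so its reads too may be shared.

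Within a library, the ratio of one regulator to another does not depend on the scaling of that library. Nanos2 was 6.65, 7.08 and 6.71% of Nanos3 FPKM in TSPAN8-high replicates, 2.92, 2.65 and 2.93% in TSPAN8-low replicates and 4.94, 4.25 and 4.05% in all ID4-EGFP+ replicates. The 3 groups did not overlap in this ratio, and their SDs were 0.236, 0.158 and 0.464 percentage points around means of 6.81, 2.83 and 4.41%. The TSPAN8-high mean was 2.40 times the TSPAN8-low mean (exact permutation p = 0.1, the smallest possible here). Nanos2 alone already separated the 3 groups, so ratios that contain it restate that result and are not separate support. How many other pairs of genes separate the groups was not counted. The FPKM of Nanos2 exceeded that of Nanos1 in 3 of 3 TSPAN8-high libraries, 0 of 3 TSPAN8-low libraries and 1 of 3 all ID4-EGFP+ libraries. The Nanos2 to Nanos1 ratio averaged 1.69 ± 0.518 in TSPAN8-high and 0.428 ± 0.217 in TSPAN8-low cells, 3.94 times as high (exact permutation p = 0.1, SD, n = 3 each), and 0.891 ± 0.226 in all ID4-EGFP+ cells. From replicate 1 to replicate 3 this ratio rose from 1.14 to 2.17 in TSPAN8-high and from 0.202 to 0.635 in TSPAN8-low cells. In all ID4-EGFP+ cells it rose from 0.744 to 1.15. By contrast, the Dazl to Nanos3 ratio overlapped between all groups, at 9.10 ± 1.34, 11.1 ± 5.25 and 8.58 ± 2.68 in TSPAN8-high, TSPAN8-low and all ID4-EGFP+ cells.

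**Figure D3:**
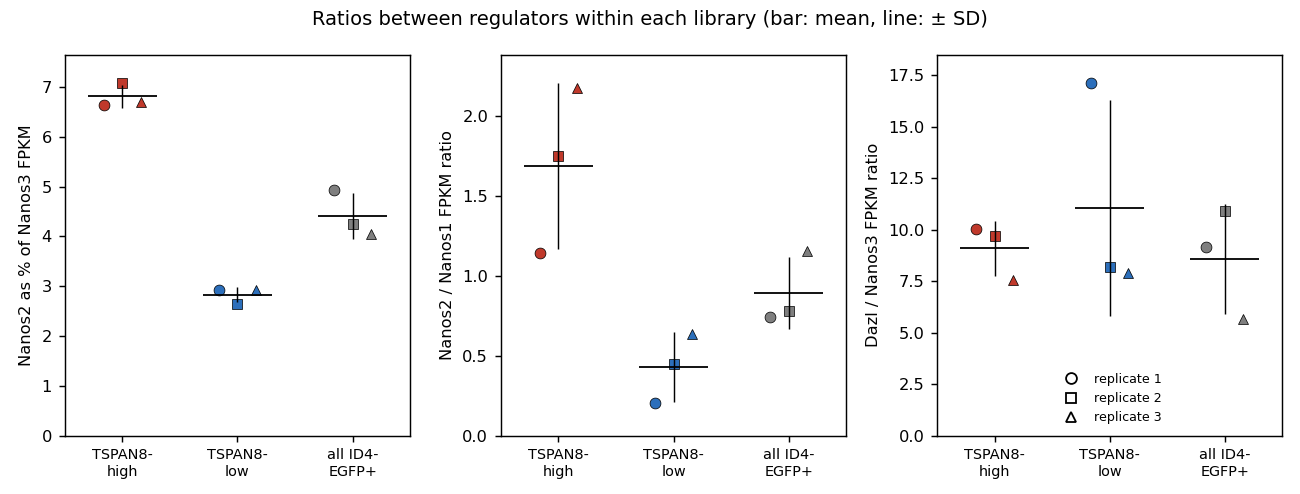
Ratios of FPKM within each library (y axes, from 0) for Nanos2 as a percentage of Nanos3, Nanos2 to Nanos1 and Dazl to Nanos3; symbols are libraries, bars are means and lines are SDs of 3 libraries. The Nanos2 percentage of Nanos3 separates the 3 groups, and the Dazl to Nanos3 ratio does not.

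Pum2, Dazl and Cpeb1 showed no called difference between TSPAN8-high and TSPAN8-low cells. Dazl measured 1709, 1452 and 1311 FPKM in TSPAN8-high, 1849, 1373 and 1498 FPKM in TSPAN8-low and 1534, 1504 and 1148 FPKM in all ID4-EGFP+ replicates, and its groups overlapped. Its log2 difference was −0.07 with a 95% interval of −0.46 to 0.31 (limma adjusted p = 0.841). Pum2 measured 16.7, 11.7 and 10.5 FPKM in TSPAN8-high, 19.09, 9.87 and 10.6 FPKM in TSPAN8-low and 11.9, 11.1 and 11.2 FPKM in all ID4-EGFP+ replicates. Replicate 1 stood above the others in both fractions, and the log2 difference was 0.01 (−0.49 to 0.52, limma adjusted p = 0.979). Cpeb1 measured 7.44, 8.71 and 10.9 FPKM in TSPAN8-high, 8.82, 8.85 and 8.49 FPKM in TSPAN8-low and 8.05, 11.4 and 10.6 FPKM in all ID4-EGFP+ replicates. Its log2 difference was 0.03 (−0.34 to 0.40, limma adjusted p = 0.931). The signs of the Pum2, Dazl and Cpeb1 differences depended on the scaling of the libraries.

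The other 2 comparisons set each fraction against all ID4-EGFP+ cells, and the 3 comparisons share these libraries. In TSPAN8-high against all ID4-EGFP+ cells, limma called 0 of 7 regulators, where 0.144% of tested genes passed, and Nanos2 alone had an unadjusted p under 0.05, as had 1084 of the 11130 tested genes. Its log2 difference there was 0.54 (SE 0.19, 95% interval 0.13 to 0.95, limma adjusted p = 0.335, or 0.0936 with the replicate block), and its groups did not overlap, as in 15.1% of tested genes. In TSPAN8-low against all ID4-EGFP+ cells limma called 0 of 7 regulators and 0% of the 11130 genes, with 909 genes at an unadjusted p under 0.05, Nanos2 among them. Its log2 difference there was −0.66 (SE 0.19, 95% interval −1.07 to −0.25, limma adjusted p = 0.5998, or 0.0946 with the replicate block), again without overlap, as in 14.3% of tested genes. With the block, 3.09% and 0.0449% of genes passed in these 2 comparisons. Nanos1 stood at −0.26 in TSPAN8-high against all ID4-EGFP+ cells (limma adjusted p = 0.806) and at 0.36 in TSPAN8-low against all ID4-EGFP+ cells (limma adjusted p = 0.695). The other 5 regulators had log2 differences between −0.21 and 0.17 in both comparisons, and limma adjusted p of at least 0.793.

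Replicates that share a number deviated together. Nanos1, Pum2 and Dazl were above their group mean in replicate 1 of 3 of 3 groups, by 0.43, 0.33 and 0.20 on average on the log2 scale. Nanos3, Dnd1 and Nanos2 were above it in replicate 3 of 3 of 3 groups, by 0.23, 0.22 and 0.17. TSPAN8-low replicate 1 held the highest or lowest value of the 9 libraries for 6 of 7 regulators, the highest for Nanos1, Pum2 and Dazl and the lowest for Nanos2, Nanos3 and Dnd1. The same library was the shallowest, at a relative depth of 0.856, and had the lowest Sertoli marker sum. How many of all tested genes had their extreme value in it was not counted. Nor was the number on the same side of the group mean in 3 of 3 groups, so these counts do not set the regulators apart from other genes. Across the 9 libraries, which share these replicate numbers, Dnd1 correlated with Dazl at r = −0.85 and with Pum2 at r = −0.82, Nanos3 with Dnd1 at 0.80, Pum2 with Dazl at 0.78, Nanos1 with Dnd1 at −0.75, with Dazl at 0.71 and with Nanos2 at −0.69, and Nanos3 with Dazl at −0.71. These are the 8 strongest of 21 pairs, given as a description.

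The longest GENCODE M21 transcripts of Dazl and Pum2 are the poorest in G and C, at 37.0 and 42.2%, followed by Cpeb1 at 48.2%, Nanos1 at 49.6%, Nanos2 at 52.7%, Dnd1 at 53.3% and Nanos3 at 56.3%. Over the 10439 tested genes with an annotated transcript, 93.8% of those tested, the mean deviation of replicate 1 correlated with GC content at r = −0.329 and that of replicate 3 at r = 0.491. Genes are not independent replicates. The log2 difference between TSPAN8-high and TSPAN8-low cells correlated with GC content at r = 0.0411, against −0.248 for TSPAN8-high and −0.338 for TSPAN8-low against all ID4-EGFP+ cells. With log2 transcript length, the mean deviation correlated at r = 0.281 in replicate 1 and −0.348 in replicate 3. The difference between TSPAN8-high and TSPAN8-low cells correlated with log2 length at 0.0984. Against all ID4-EGFP+ cells, r with log2 length was 0.0932 for TSPAN8-high and −0.0431 for TSPAN8-low. The part of GC content or transcript length in the values of the regulators was not tested.

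**Figure D4:**
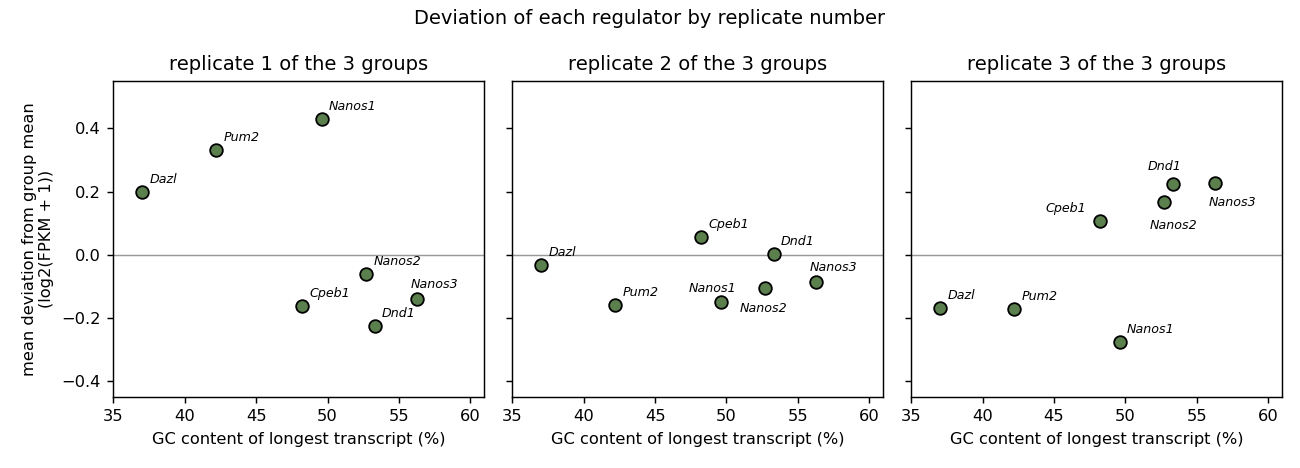
Mean deviation from the group mean in log2(FPKM + 1) (y axis) of each regulator in replicates 1, 2 and 3 of the 3 groups, against the GC content of its longest transcript in percent (x axis); each point is a gene. Nanos1 at 0.43, Pum2 at 0.33 and Dazl at 0.20 lie above 0 in replicate 1, and Nanos3, Dnd1 and Nanos2 lie above 0 in replicate 3.

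The NANOS genes differed in the sequence around their starts. Promoter windows from RefSeq on GRCm38.p6, from 250 bases before to 50 bases after the start, matched 6 of 7 regulators, all but Dnd1. The 300-base windows of the NANOS genes are shown because the Nanos2 and Nanos1 estimates had opposite signs. Nanos1 was called only with the replicate block. The part of these sequences in the levels was not tested. Capitals mark E-boxes (CANNTG) and the ETS-type motif GGAAGT on either strand, 2 motifs that do not overlap here. E proteins, the partners of ID4, bind motifs of the E-box kind. The pattern CANNTG is the same on both strands, though a single match need not be a palindrome. The windows read 5′ to 3′ on the strand of the gene.

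Nanos1 (chr19:60755737-60756036, plus strand): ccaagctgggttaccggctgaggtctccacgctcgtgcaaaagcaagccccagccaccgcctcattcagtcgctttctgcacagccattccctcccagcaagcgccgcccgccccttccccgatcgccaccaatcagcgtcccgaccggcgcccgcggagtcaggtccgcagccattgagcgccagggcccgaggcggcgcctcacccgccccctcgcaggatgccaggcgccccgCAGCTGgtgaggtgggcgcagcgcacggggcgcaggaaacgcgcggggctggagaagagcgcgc
Nanos2 (chr7:18987274-18987573, plus strand): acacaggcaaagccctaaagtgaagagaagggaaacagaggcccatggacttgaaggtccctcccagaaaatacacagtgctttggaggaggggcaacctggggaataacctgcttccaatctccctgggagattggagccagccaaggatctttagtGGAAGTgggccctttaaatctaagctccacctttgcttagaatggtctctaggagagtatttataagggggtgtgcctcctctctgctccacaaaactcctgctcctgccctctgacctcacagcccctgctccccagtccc
Nanos3 (chr8:84176503-84176802, minus strand): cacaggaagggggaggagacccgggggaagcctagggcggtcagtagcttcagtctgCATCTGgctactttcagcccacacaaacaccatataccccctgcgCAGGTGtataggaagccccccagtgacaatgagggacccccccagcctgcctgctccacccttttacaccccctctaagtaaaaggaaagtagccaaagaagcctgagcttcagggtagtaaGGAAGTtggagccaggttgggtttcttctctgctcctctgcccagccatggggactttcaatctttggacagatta

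The Nanos1 window held 34 CpG dinucleotides and 71.7% G and C, the Nanos2 window 0 CpG and 53.0%, and the Nanos3 window 3 CpG and 55.3%. Over 32851 promoter windows the medians were 7 CpG and 52.7%. Windows of the other regulators held 28 CpG for Dazl, 33 for Cpeb1 and 35 to 44 for the 3 starts of Pum2. The E-box letters occurred once in the Nanos1 window, 2 times in that of Nanos3 and not in that of Nanos2, and 72.3% of all windows held them. GGAAGT occurred once for Nanos2 and once for Nanos3, and 23.8% of windows held it. A match is a description of letters and not of binding.

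The regulators also carry elements that some of them recognise. In GENCODE M21 3′UTRs on GRCm38, the PUM2 element UGUANAUA, searched on the sense strand, occurred 1 time in the 2845 bases of Nanos1, 2 times in the 2861 bases of Pum2 itself and 1 time in the 1315 bases of Cpeb1. It occurred 0 times in Nanos2, Nanos3, Dnd1 and Dazl. Of 3′UTRs within 20% of the same length, 43.3% held it for Nanos1, 43.2% for Pum2 and 24.8% for Cpeb1. For the genes without a site the shares were 17.5% for Nanos2, 4.03% for Nanos3, 7.53% for Dnd1 and 31.4% for Dazl. The sites are shown with the element in capitals and its neighbouring bases, with the element's place counted from the first base after the stop codon.

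Nanos1 (bases 652 to 659): uaaucauaucgUGUACAUAuuuggaaacgg
Pum2 (bases 445 to 452): guuuauagagaUGUAUAUAgaauuauaguu
Pum2 (bases 698 to 705): auguacagaauUGUAUAUAcuuauaauugu
Cpeb1 (bases 780 to 787): ugagcagcugcUGUAUAUAguuuuaaaugg

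The cytoplasmic polyadenylation element UUUUAU occurred 5 times in Dazl and in Pum2, 4 times in Nanos1, 2 times in Dnd1 and in Cpeb1, 1 time in Nanos2 and 0 times in Nanos3, where it is held by 75.5, 85.4, 85.4, 25.8, 61.9, 50.5 and 11.9% of 3′UTRs of like length.

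Genes of 5 groups around these regulators were followed, 78 genes in all. These lists too were chosen with earlier results of these data known, so their counts are a description. Of the 21 CCR4-NOT and Pumilio partners, all tested, 3 were higher and 0 lower in TSPAN8-high cells relative to TSPAN8-low cells, where 3.41% of all tested genes were higher and 2.15% lower, with a median log2 difference of 0.02 beside 0.05 over all tested genes. Tob1, which links the deadenylase to poly(A) binding protein, rose to 8.83 ± 0.839 FPKM in TSPAN8-high, against 4.72 ± 0.124 FPKM in TSPAN8-low cells (SD, n = 3 each), a log2 difference of 0.78 (SE 0.15, limma adjusted p = 0.0121). Cnot2, a scaffold subunit, rose to 92.6 ± 3.74 FPKM, against 60.2 ± 1.90 FPKM (0.61, limma adjusted p = 0.0262). Cnot6l, a catalytic subunit, rose to 33.2 ± 3.34 FPKM, against 20.5 ± 1.33 FPKM (0.67, limma adjusted p = 0.0435). Cnot1, the central scaffold, passed only with the replicate block (0.42, limma adjusted p = 0.147 without it and 0.0392 with it). The Cnot2 call was lost without replicate 2 or 3 of TSPAN8-high, any one TSPAN8-low library, or any one replicate number in all groups (limma adjusted p of up to 0.216). The Cnot6l call was lost without any one library of either fraction, replicate 1 of all ID4-EGFP+ cells or any one replicate number (up to 0.245), and the Tob1 call without any one replicate number in all groups (up to 0.120). Cnot6l also missed the threshold with the authors' normalized values, quantile normalization, a common median and no filter (limma adjusted p of 0.0722, 0.0729, 0.0735 and 0.0847).

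Another list held 11 messages reported as targets of one or another germ cell RNA regulator, and 8 of them were tested. Relative to TSPAN8-low cells, 2 of the 8 were lower and 0 higher in TSPAN8-high cells, where 2.15% of all tested genes were lower. The median log2 difference was −0.19 beside 0.05 over all tested genes, with 3 of the 8 estimates above 0. Stra8, which starts the meiotic programme and which NANOS2 represses in fetal male germ cells, fell to 90.9 ± 13.7 FPKM in TSPAN8-high, against 187 ± 13.9 FPKM in TSPAN8-low cells (log2 difference −1.04, SE 0.15, limma adjusted p = 0.00382, SD, n = 3 each). Sycp3, a protein of meiotic chromosome axes, fell to 692 ± 189 FPKM, against 1313 ± 271 FPKM (−0.94, limma adjusted p = 0.0400). Sycp3 no longer passed when replicate 2 or 3 of TSPAN8-high, replicate 1 or 2 of TSPAN8-low, replicate 3 of all ID4-EGFP+ cells or any one replicate number was left out (limma adjusted p of up to 0.231), and with the authors' normalized values, quantile normalization or no filter (0.0794, 0.107 and 0.113), and Stra8 lost its call without replicate 2 of all groups (limma adjusted p = 0.105). Ddx4, a germ cell helicase and DAZL target, averaged 591 ± 58.4 FPKM, against 404 ± 58.1 FPKM (0.55, limma adjusted p = 0.124, or 0.0245 with the block). Sohlh2, a transcription factor of differentiation, differed by −0.43 (limma adjusted p = 0.105, or 0.0277 with the block).

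Among 7 DAZ family members and partners, 1 was lower and 0 higher, beside 2.15% and 3.41% of all tested genes, with a median log2 difference of −0.13 beside 0.05 over all tested genes. Pabpc4, a cytoplasmic poly(A) binding protein, fell to 2.81 ± 0.0361 FPKM in TSPAN8-high, against 5.19 ± 0.892 FPKM in TSPAN8-low cells (−0.69, limma adjusted p = 0.0290), a call lost without any one TSPAN8-high library, replicate 1 or 3 of TSPAN8-low, or any one replicate number (limma adjusted p of up to 0.194) and with no filter (0.0713). Boll, the closest relative of Dazl, averaged 106 ± 18.7 FPKM, against 132 ± 22.9 FPKM (−0.32, limma adjusted p = 0.311, or 0.0451 with the block), and Dazap2 differed by −0.50 (0.240, or 0.0126 with the block, both limma adjusted p). Dzip1 differed by 0.26 (limma adjusted p = 0.345).

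None of the 12 tested among 16 cytoplasmic polyadenylation genes passed limma, and 0 had an unadjusted p under 0.05, which 2446 of the 11130 tested genes had, with a median log2 difference of 0.09. Cpeb2, Cpeb3 and Cpeb4, the relatives of Cpeb1, averaged under 0.251 FPKM in every group and were not tested. Fip1l1, a polyadenylation factor, differed by 0.49 (limma adjusted p = 0.263, or 0.0369 with the block), Papd5 by −0.37 (0.414), Cpsf3 by 0.30 (0.259) and Aurka by 0.30 (0.356). Of 20 tested among 23 other germ cell RNA-binding proteins, limma called 0, with 2 at an unadjusted p under 0.05, beside the same 2446 of 11130, and a median log2 difference of 0.14. Elavl2 differed by 0.46 (limma adjusted p = 0.211, or 0.0311 with the block), Zfp36l1 by 0.37 (0.203), Tial1 by 0.35 (0.241) and Igf2bp1 by 0.26 (0.304). In both comparisons with all ID4-EGFP+ cells limma without a block called 0 genes of these 5 groups. With the block it called 2 lower in TSPAN8-high than in all ID4-EGFP+ cells. Pabpc4 averaged 2.81 ± 0.0361 FPKM in TSPAN8-high and 5.72 ± 0.937 FPKM in all ID4-EGFP+ cells (−0.81, limma adjusted p = 0.0717, or 0.00688 with the block, SD, n = 3 each), and Stra8 averaged 90.9 ± 13.7 and 153 ± 7.56 FPKM (−0.75, limma adjusted p = 0.0695, or 0.00773 with the block).

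The genes whose levels over the 9 libraries were most like those of each regulator, by Pearson's r of log2(FPKM + 1), are given as a description of libraries that share groups and replicate numbers. For Nanos2 they were Chn2 (0.987), Fam169b (0.985) and Dusp6 (0.984), and for Nanos1 they were Nus1 (0.975), Tfb2m (0.974) and 4932415G12Rik (0.967). For Dazl they were Arl5a (0.993), Tank (0.991) and Plk4 (0.989), for Nanos3 Ccdc53 (0.972), Grcc10 (0.970) and Pomp (0.969), and for Dnd1 Surf1 (0.975), Sfpi1 (0.968) and Ctsd (0.956). Of these, Sfpi1 had a mean of only 0.826 FPKM, under the level of 1 FPKM used in the filter. Pum2 was closest to Ppp1r15b (0.969), 4931406C07Rik (0.966) and Ppp4r2 (0.965), and Cpeb1 to Fbxo34 (0.963), Lamb1 (0.958) and Nat10 (0.939).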

How the data were processed

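RNA-seq libraries were made from sorted cells with the SMART-Seq v4 and Nextera XT kits, per the labels' protocols. FastQC, TopHat2 2.0.12, Bowtie2 2.2.3.0, Cufflinks and mm9 are named in the submitters' processing notes. The authors deposited FPKM per gene, which are scaled to transcript length and library size. They also deposited a normalized signal per gene, not on a log scale, by a method that the sources used here do not give. The FPKM were used, and the normalized signal was an alternative.

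Entries whose symbol stood on several entries (262 symbols, 768 entries) or had become a date (27 entries) were left out. Genes with at least 1 FPKM in at least 3 of 9 libraries (11130) were tested on log2(FPKM + 1), with a pseudocount of 1, by limma 3.58.1 with a mean-variance trend in R 4.3.3. All 3 groups entered 1 fit, with Benjamini-Hochberg adjustment over all tested genes and a threshold of 0.05. The code was tested on simulated data. Figures were drawn with matplotlib 3.10.9 in Python 3.11.15.

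Replicate numbers come from the labels, which do not say that they mark a shared preparation. Deviations from group means correlated between the 9 same-number pairs of libraries at 0.26 to 0.48, and between the 18 other pairs at −0.46 to 0.28, so a fit with replicate number as a block is given beside results whose call it changed.

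The regulators and lists were chosen with earlier results of these data known. Named genes were the 7 regulators, from each list up to 4 genes with the smallest p between TSPAN8-high and TSPAN8-low cells, and the 3 genes most like each regulator. Alternatives covered the pseudocount (0.1), the filter, the scaling, the trend, the block, the libraries and the groups in the fit. Coordinates in mm9 are not printed, since the annotation used is on GRCm38.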

Additional observations from a re-analysis of the deposited data

How the results depend on the processing

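Between TSPAN8-high and TSPAN8-low cells limma called 1 regulator. With the replicate block, which rests on the pairing of numbers, it called 2 (Nanos2 and Nanos1), as it did when the block was joined to the authors' normalized values, quantile normalization or a common median, combinations chosen after seeing the data (2 each). Leaving out libraries gave 0 to 2 called there, the 0 without replicate 2 of all groups, 0 to 1 in TSPAN8-high against all ID4-EGFP+ cells and 0 to 0 in TSPAN8-low against all ID4-EGFP+ cells. The 1 was Nanos2 with the block and without TSPAN8-low replicate 1 (0.54, limma adjusted p = 0.0274). The block changed no other regulator's call. Nanos2 between the fractions ranged over log2 differences of 1.02 to 1.37 in the fits without a block, the highest with a pseudocount of 0.1. Nanos1 without a block ranged over −0.85 to −0.39 in the leave-outs (limma adjusted p of at least 0.0670, none called), and it kept its call with the block in every leave-out (−0.65 to −0.59, limma adjusted p of at most 0.0418).

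Signs of uncalled differences turned as follows, and the cause was not tested. With the authors' normalized values Pum2 was −0.064, Dazl 0.032 and Cpeb1 −0.050 between the fractions; with quantile normalization −0.078, 0.034 and −0.052; with a common median Pum2 was −0.077 and Cpeb1 −0.059. Nanos3 in TSPAN8-high against all ID4-EGFP+ cells was 0.014 with the authors' values and 0.0096 with quantile normalization. Over leave-outs, the fractions differed by −0.17 to 0.29 for Pum2, −0.18 to 0.047 for Dazl, −0.12 to 0.15 for Cpeb1 and −0.15 to 0.28 for Nanos3. TSPAN8-high against all ID4-EGFP+ cells gave −0.16 to 0.20 for Dnd1, −0.17 to 0.11 for Nanos3, −0.036 to 0.19 for Dazl and −0.036 to 0.27 for Pum2. TSPAN8-low against all ID4-EGFP+ cells gave −0.37 to 0.092 for Nanos3, −0.43 to 0.041 for Dnd1 and −0.14 to 0.30 for Pum2. Without counts, the counting error of the low genes is unknown.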
